A study of Capra hircus with 4 samples.

Results

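Anti-Müllerian hormone (AMH) and its type II receptor (AMHR2) were followed across the cell types and granulosa states of the goat ovary. Both genes were taken by symbol from the 4 count matrices, where they are 2 of 28944 listed genes. They were chosen by name and not by a rule on their level, though earlier results of these data were known. The ovaries came from 2 Du'an goats, a breed recorded as monotocous with a litter size of 1, and 2 Nubian goats, recorded as polytocous with a litter size of at least 3. All 4 goats were about 3 years old, carried a progesterone-releasing device (300 mg) for 17 days to synchronise estrus and no hormone to induce superovulation, and the left ovary was taken after the onset of estrus. Each goat gave 1 library of nuclei, so the goats are the replicates, breed cannot be told apart from whatever else differs between 2 pairs of animals, and no untreated or non-estrous goat was included.

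AMH is a ligand of the TGF-beta family. Granulosa cells, the somatic cells that surround the oocyte, make it from the time follicles start to grow, and its level falls in large follicles as aromatase rises. It is cut by proprotein convertases and binds AMHR2, which then pairs with a type I receptor of the BMP group. The signal passes through SMAD1, SMAD5 and SMAD9 with SMAD4. AMH is known to restrain the recruitment of primordial follicles and to lower the response of granulosa cells to FSH, and its blood level is used as a measure of the follicle reserve.

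The matrices held 48332 nuclei, of which 44734 were kept, with 29800057 to 54540864 UMIs and a median of 1755 to 3292 UMIs per nucleus in a library. A UMI (unique molecular identifier) marks 1 captured molecule. Of 47909 barcodes in all, 361 were shared by libraries. Clustering without the members gave 15 named classes, 5 of them granulosa states, which held 34086 nuclei. The other 10648 nuclei lay in clusters left unnamed, and oocyte markers named no cluster. Cumulus-like, mural-like, progenitor-like, cycling granulosa-like and granulosa-like are names given from marker lists, the last of them to 1 cluster that had general granulosa markers only. Mural-like nuclei were absent from Du'an 1 as a class, which rests on 3 goats.

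Both members were sparse. AMH gave 5669 UMIs in 3981 of the kept nuclei, with 857 UMIs in Du'an 1, 2888 in Du'an 2, 1200 in Nubian 1 and 724 in Nubian 2. AMHR2 gave 515 UMIs in 489 nuclei, with 102, 141, 195 and 77 UMIs in the same order. One nucleus held up to 21 AMH UMIs but never more than 2 of AMHR2. The granulosa set of 23879 nuclei, unnamed subclusters included, gave 77.4% of the AMH UMIs and 83.7% of the AMHR2 UMIs, against 72.2% of all UMIs. For AMH this excess was not seen in every goat. Its share was 78.5% against 76.1% of UMIs in Du'an 1, 82.2% against 71.2% in Du'an 2, 69.25% against 71.8% in Nubian 1 and 70.6% against 70.7% in Nubian 2. Levels below are in CPM, the UMIs of the gene over all UMIs summed in a goat and class, scaled to the same total for each sum, with the mean ± SD over goats.

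AMH, the ligand, was highest among the named classes in cumulus-like, granulosa-like and cycling granulosa-like nuclei, and low in mural-like and progenitor-like nuclei. In cumulus-like nuclei, named from markers of the cells around the oocyte, AMH stood at 73.6 CPM in Du'an 1, 106 CPM in Du'an 2, 51.3 CPM in Nubian 1 and 59.7 CPM in Nubian 2, a mean of 72.7 ± 24.2 CPM (SD, n = 4). In granulosa-like nuclei the 4 values were 71.8, 88.8, 61.9 and 47.3 CPM, a mean of 67.4 ± 17.4 CPM. Du'an 2 was the highest goat in both states, and the goats of these states overlapped.

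The cycling granulosa-like nuclei were less uniform. Their AMH level was 67.6 CPM in Du'an 1, 75.3 CPM in Du'an 2, 11.8 CPM in Nubian 1 and 44.1 CPM in Nubian 2, a mean of 49.7 ± 28.6 CPM (n = 4). Nubian 1 stood apart, and its cycling nuclei were mostly of another subcluster than those of the other goats, as described further on.

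Mural-like nuclei, which carry aromatase (CYP19A1) and the LH receptor (LHCGR), showed little AMH. The level was 22.4 CPM in Du'an 2, 10.1 CPM in Nubian 1 and 6.24 CPM in Nubian 2, a mean of 12.9 ± 8.47 CPM (n = 3). Progenitor-like nuclei had 10.7, 15.5, 13.2 and 5.67 CPM in Du'an 1, Du'an 2, Nubian 1 and Nubian 2, a mean of 11.3 ± 4.22 CPM (n = 4). In each of the 3 goats with both states the cumulus-like level was above the mural-like level, and the ranges of the 2 states did not overlap. Unnamed subcluster 11 is not in the mural-like class, though 7 of 7 mural markers were raised in it. It was left unnamed for its low depth, by a limit set after the data were seen. In Nubian 1, which gave 830 of its 883 nuclei, it had 54.2 CPM of AMH. The part of depth in that level was not tested.

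**Figure D1:**
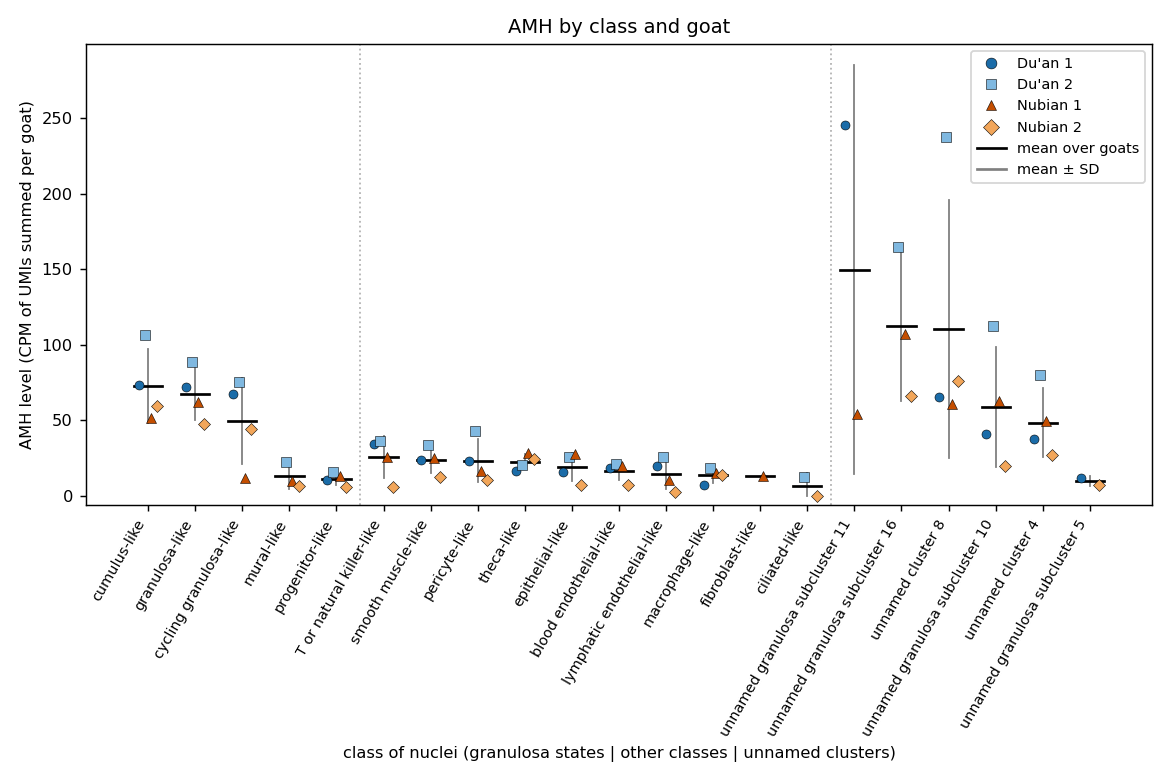
AMH level in CPM (vertical axis, linear) for each class of nuclei (horizontal axis), with 1 point per goat, a black bar for the mean over goats and a grey line for mean ± SD, drawn no lower than 0; dotted lines part granulosa states, other classes and unnamed clusters. Cumulus-like and granulosa-like means of 72.7 and 67.4 CPM lie above every other named class, while mural-like and progenitor-like means lie among the classes that are not granulosa, and the highest points are in unnamed clusters.

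Outside the granulosa states the means of the named classes ran from 6.31 CPM in ciliated-like nuclei to 25.7 CPM in T or natural killer-like nuclei. Smooth muscle-like nuclei had a mean of 23.6 CPM, pericyte-like 23.3, theca-like 22.6, epithelial-like 19.1, blood endothelial-like 16.7, lymphatic endothelial-like 14.5 and macrophage-like 13.5 CPM, and the fibroblast-like class, from Nubian 1 alone, had 13.1 CPM. None of these cell types is known to make AMH. The mural-like and progenitor-like means of 12.9 and 11.3 CPM lay within this range. The level of free RNA was not measured, so no expression of AMH is read from values in this range, nor its absence. Clusters left unnamed by limits set after the data were seen are in neither this range nor the tests. One with 8 of 8 smooth muscle markers raised over the median cluster had a mean of 48.4 CPM. Another, with 6 of 7 fibroblast markers raised, had a mean of 110 CPM.

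The order of the classes was set by small steps. Cumulus-like exceeded granulosa-like nuclei by 5.29 ± 12.4 CPM within goats, granulosa-like exceeded cycling granulosa-like nuclei by 17.8 ± 22.1 CPM, and cycling granulosa-like exceeded T or natural killer-like nuclei by 24.0 ± 25.5 CPM. Of the 14 neighbouring pairs in the order of AMH, the 1 pair that differed beyond its spread within goats was progenitor-like over ciliated-like, by 4.28 ± 1.96 CPM in 2 goats. The ciliated-like levels rest on 4 AMH UMIs in Du'an 2 and 0 in Nubian 2. In the fit across genes, which shares its spread over all classes, that pair was not called (edgeR adjusted p = 0.396). The fit did call cycling granulosa-like over T or natural killer-like nuclei (log2 fold change 0.94 ± 0.32, edgeR adjusted p = 0.0127), where 51.2% of genes were called. Pairs with the fibroblast-like class had 1 goat and no spread.

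Over all classes, AMH was 2.11-fold higher in the granulosa states than in the other named classes, taking each class with equal weight (log2 fold change 1.08 ± 0.15 SE, adjusted p = 7.13e-08, edgeR quasi-likelihood test with Benjamini-Hochberg adjustment). In this contrast 48.4% of the 15892 genes tested were called, 27.3% of the genes tested being higher and 21.1% lower, so that a call alone sets AMH apart from few genes. The scaling mattered for the whole table: the median of all genes moved by -0.18 with RLE factors and by -0.30 with DESeq2, and the share of calls that were higher went from 56.3% to 39.9% and 30.8%. AMH stayed called under both, at 0.90 and 0.91. Without Du'an 2 the AMH value was 1.69. The ciliated-like class was then left with the 69 nuclei of Nubian 2, which held no AMH UMI, so that this size depends on the prior count of the fit. With all goats and without the ciliated-like class it was 0.98 ± 0.14 (adjusted p = 8.19e-08).

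Taken pair by pair, the granulosa states fell into 2 kinds. Cumulus-like, granulosa-like and cycling granulosa-like nuclei each exceeded all 10 other classes in AMH, by at least 2.89-fold, 2.82-fold and 1.92-fold in the fit, with edgeR adjusted p up to 0.00203, 0.00242 and 0.0258. Between 17.4% and 53.4% of all genes were called in these pairs. The excess of cycling nuclei did not hold within Nubian 1, which alone gave the fibroblast-like class. Its cycling granulosa-like level of 11.8 CPM was below fibroblast-like (13.1 CPM), smooth muscle-like (24.8 CPM) and T or natural killer-like nuclei (25.9 CPM). Of that goat's classes outside the granulosa states, only lymphatic endothelial-like nuclei were lower, at 10.4 CPM. Mural-like nuclei differed from none of the 10 classes at this threshold, with adjusted p from 0.0555 upward, ciliated-like nuclei included, where 29.8% of genes were called. Progenitor-like nuclei were lower than 2 of the 10, T or natural killer-like and smooth muscle-like nuclei. The log2 fold changes were -1.09 ± 0.33 and -0.92 ± 0.31 (edgeR adjusted p = 0.00537 and 0.0225). These 2 pairs called 50.6% and 26.9% of all genes.

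Among granulosa states, 6 of the 10 pairs differed in AMH, each of the 3 states with a high level against each of the 2 with a low one. AMH was 5.01-fold higher in cumulus-like than in mural-like nuclei (log2 fold change 2.32 ± 0.33, adjusted p = 8.50e-07, edgeR), in a comparison that called 14.8% of 15892 genes. Over progenitor-like nuclei the value was 2.62 ± 0.31 for cumulus-like (adjusted p = 6.03e-09, 17.4% of genes called) and 2.58 ± 0.31 for granulosa-like nuclei (adjusted p = 5.52e-09, 20.7% called). Granulosa-like over mural-like nuclei gave 2.29 ± 0.33 (adjusted p = 1.70e-06, 12% called). Against cycling granulosa-like nuclei, mural-like nuclei had -1.73 ± 0.33 (adjusted p = 0.000122, 13.2% called) and progenitor-like nuclei -2.02 ± 0.31 (adjusted p = 7.61e-07, 26.2% called).

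Nuclei of the granulosa set, a set made from clusters, were also split without regard to their states. The split used 2 genes alone, nuclei with a UMI of both CYP19A1 and LHCGR against those with neither. Both genes are among the markers that name the mural-like state, so the split is not independent of that name. AMH was then 33.1, 11.7 and 5.52 CPM in nuclei with both and 92.4, 41.8 and 23.9 CPM in nuclei with neither, in Du'an 2, Nubian 1 and Nubian 2. It was higher in nuclei with neither in all 3 goats (log2 fold change 1.43, edgeR adjusted p = 0.000529). In Du'an 1, where 1 nucleus had both, the 4267 nuclei with neither gave 28.9 CPM. That goat had 405 cumulus-like nuclei, so the nuclei with neither were not those of the cumulus-like state alone. Nuclei with 1 of the pair were not ordered between the 2 kinds in every goat, with 40.01 CPM in Du'an 1, 101 CPM in Du'an 2, 33.8 CPM in Nubian 1 and 14.4 CPM in Nubian 2. The nuclei with neither were shallower, with a median of 5024, 2110 and 3021 UMIs against 6534, 4875 and 5184 in Du'an 2, Nubian 1 and Nubian 2, and the part of depth in this difference was not tested.

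The progenitor-like state had 2.74-fold less AMH than the mean of cumulus-like and mural-like nuclei (log2 fold change -1.45 ± 0.28, adjusted p = 6.82e-05, edgeR), where 20.8% of genes were called. For cycling granulosa-like nuclei against the same mean the AMH value was 0.57 ± 0.26 (adjusted p = 0.185), and 9.31% of genes were called. That value joined 2 unlike subclusters. Leaving out the aromatase-high one gave 0.90 (adjusted p = 0.00292), and leaving out the aromatase-low one gave -1.52 (adjusted p = 0.00260). Without Nubian 1 it was 0.84 (adjusted p = 0.0384).

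The granulosa set was clustered into 17 subclusters, whose AMH and aromatase levels, pooled over goats, are described here without a test. Cycling subcluster 12, from all 4 goats, had 64.0 CPM of AMH, 2809 CPM of the FSH receptor FSHR and 77.4 CPM of CYP19A1. Cycling subcluster 13 had 9.31 CPM of AMH, 1357 CPM of FSHR and 1667 CPM of CYP19A1. Nubian 1 gave 730 of the 780 nuclei of subcluster 13, which had 8.66 CPM of AMH there and 19.1 CPM in the 37 nuclei of Du'an 2. In Nubian 1 itself the 93 nuclei of subcluster 12 had 38.7 CPM. The 2 cycling subclusters thus differed in AMH within Nubian 1 and within Du'an 2, where subcluster 12 had 85.4 CPM.

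The 3 cumulus-like subclusters did not have the same AMH level. Subcluster 9 reached 171 CPM over all goats, against 47.8 CPM in subcluster 6 and 63.2 CPM in subcluster 7. The goats were mixed unequally, since Nubian 1 gave 1753 of the 1835 nuclei of subcluster 6, Du'an 2 gave 1625 of the 1749 of subcluster 7, and Du'an 2 gave 809 of the 1028 AMH UMIs of subcluster 9. By goat, subcluster 9 had 88.8 CPM in Du'an 1, 244 CPM in Du'an 2, 78.4 CPM in Nubian 1 and 71.2 CPM in Nubian 2. Subcluster 6 had 67.6 CPM in Du'an 1, 47.3 CPM in Nubian 1 and 46.1 CPM in Nubian 2, and subcluster 7 had 41.3 CPM in Du'an 1, 64.9 CPM in Du'an 2 and 42.7 CPM in Nubian 2. Subcluster 9 was thus the highest within each goat. It was also the cumulus-like subcluster with most ribosomal protein transcripts, 0.972% of UMIs against 0.210% and 0.184%, and the part of this in its AMH level was not tested. Without subcluster 9 the cumulus-like against mural-like difference was 1.81 (edgeR adjusted p = 6.37e-05). Across the 19 sums of granulosa states, the AMH level and the ribosomal protein share had a Pearson's r of 0.50, and across all 54 sums of named classes -0.18, where the sums of a goat share its library.

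The mural-like subclusters came almost wholly from 1 goat each, so that their AMH levels cannot be told apart from those of the goats. Nubian 1 gave 3635 of the 3650 nuclei of subcluster 1 (10.05 CPM pooled) and 586 of the 594 of subcluster 14 (10.4 CPM). Du'an 2 gave 1489 of the 1496 nuclei of subcluster 8 (22.4 CPM), and Nubian 2 gave 406 of the 407 of subcluster 15 (6.04 CPM).

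**Figure D2:**
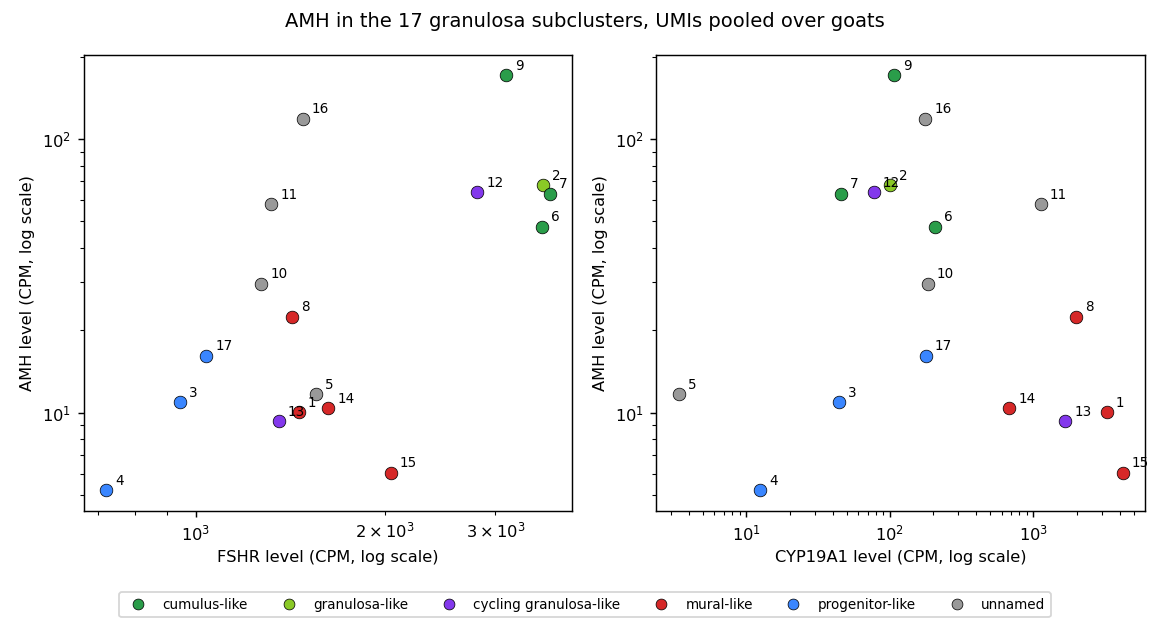
AMH level against FSHR level (left) and CYP19A1 level (right) in the granulosa subclusters, all in CPM on log axes with UMIs pooled over goats; each point is a subcluster with its number, coloured by the state it was named for. Subclusters 2, 6, 7, 9 and 12, with at least 2809 CPM of FSHR, had 47.8 to 171 CPM of AMH, and mural-like subclusters 1, 8, 14 and 15, each nearly of 1 goat, had 6.04 to 22.4 CPM, while unnamed subclusters 11 (1122 CPM of CYP19A1) and 16 (1482 CPM of FSHR) had 57.8 and 119 CPM. Low CYP19A1 did not always go with high AMH. Progenitor-like subclusters 3, 4 and 17, with 44.2, 12.4 and 178 CPM of CYP19A1, had 10.9, 5.23 and 16.2 CPM of AMH. Unnamed subcluster 5, with 3.37 CPM of CYP19A1, had 11.7 CPM.

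Nuclei rich in AMH were few. At least 5 AMH UMIs were found in 95 nuclei, 85 of them in granulosa states, 10 in an unnamed cluster rich in ribosomal protein transcripts and 0 in the other named classes. The cumulus-like state held 65 of the 85, the granulosa-like and cycling granulosa-like states 9 each, and the mural-like and progenitor-like states 1 each. Du'an 2 gave 69 of the 85, Du'an 1 gave 8, and the Nubian goats gave 4 each. Du'an 2 also had the deepest nuclei, and the part of depth in this count was not tested.

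Shares of nuclei with an AMH UMI were compared after each nucleus was thinned to 1000 UMIs, leaving shallower nuclei out. The share in cumulus-like nuclei was 7.34% in Du'an 1, 10.2% in Du'an 2, 6.55% in Nubian 1 and 11.6% in Nubian 2, a mean of 8.93 ± 2.39% (n = 4). Granulosa-like and cycling granulosa-like nuclei followed with 7.17 ± 1.95% and 6.02 ± 3.15%. Classes that should lack AMH had lower means, 3.61 ± 2.85% in T or natural killer-like, 2.49 ± 1.29% in smooth muscle-like, 2.05 ± 0.922% in blood endothelial-like and 1.94 ± 1.23% in macrophage-like nuclei. The highest goat of the T or natural killer-like class, at 7.45%, overlapped all 3 states.

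Mural-like and progenitor-like nuclei had 1.70 ± 0.586% and 1.24 ± 0.327%, below the means of these 4 classes but within the range of all other classes. Lymphatic endothelial-like nuclei, at 1.54 ± 1.37%, lay below the mural-like mean. Ciliated-like nuclei, at 1.02 ± 1.44% in 2 goats, lay below both. Epithelial-like, fibroblast-like and theca-like nuclei were above both, at 3.24%, 2.25% and 2.01%. No expression is read from the mural-like and progenitor-like shares. Pericyte-like nuclei had 4.12 ± 3.67%, from 7 nuclei with a UMI in 3 goats. Without thinning the shares were 22.6% in cumulus-like, 24.8% in granulosa-like, 22.3% in cycling granulosa-like, 6.91% in mural-like and 6.19% in progenitor-like nuclei, against 4.65% in smooth muscle-like and 6.46% in T or natural killer-like nuclei. Median depths per goat before thinning were 3184 to 5830 UMIs in the cumulus-like and 1728 to 2123 UMIs in the smooth muscle-like nuclei that passed the depth limit. The thinning left out 255 of 4943 cumulus-like and 1586 of 5065 smooth muscle-like nuclei.

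**Figure D3:**
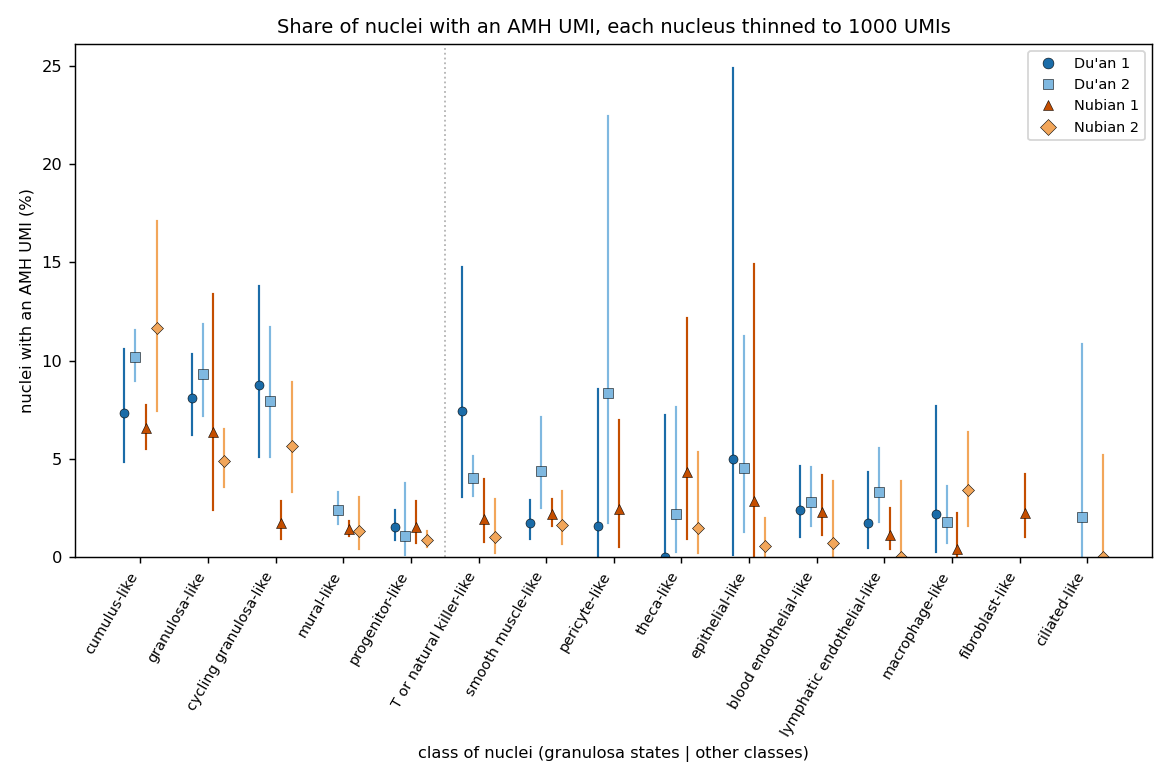
Share of nuclei with an AMH UMI in percent (vertical axis) by class, each nucleus thinned to 1000 UMIs, with 1 point per goat and its exact 95% binomial interval, which covers counting error only. Cumulus-like and granulosa-like shares lie between 4.88% and 11.6% in the 4 goats, and mural-like and progenitor-like shares lie between 0.869% and 2.38%.

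AMHR2, the receptor, was a low transcript everywhere, and its highest means were in granulosa-like and cumulus-like nuclei. In granulosa-like nuclei it stood at 9.07 CPM in Du'an 1, 4.76 CPM in Du'an 2, 11.0 CPM in Nubian 1 and 3.28 CPM in Nubian 2, a mean of 7.04 ± 3.63 CPM (n = 4) that rests on 77 UMIs. In cumulus-like nuclei the values were 5.98, 4.19, 8.46 and 2.25 CPM, a mean of 5.22 ± 2.64 CPM. The goats gave no firm order, since the granulosa-like value of Nubian 1 rests on 5 UMIs (95% exact Poisson interval 3.59 to 25.8 CPM) and the cumulus-like value of Nubian 2 on 2 UMIs (0.273 to 8.14 CPM).

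The other granulosa states had lower means of AMHR2, and of the pairs with the 2 states above only 1 was called, as given below. Their SDs over goats were small but rest in part on few UMIs. In cycling granulosa-like nuclei of Du'an 1, 3 UMIs gave 2.64 CPM (95% exact Poisson interval 0.544 to 7.70 CPM). The small SDs thus do not show that the levels were alike. The means were 2.97 ± 0.549 CPM in cycling granulosa-like, 2.70 ± 0.594 CPM in progenitor-like and 2.60 ± 0.459 CPM (n = 3) in mural-like nuclei. Other classes ranged up to 4.09 CPM in epithelial-like nuclei, a mean that rests on 1 UMI in the 24 nuclei of Du'an 1 and 2 UMIs elsewhere. Theca-like nuclei, steroid-producing cells of the follicle wall, had AMHR2 UMIs in the Du'an goats alone, 1 in each. The counts of 0 allow up to 14.2 CPM in Nubian 1 and 9.18 CPM in Nubian 2, so no difference between breeds is read there. Ciliated-like nuclei had no AMHR2 UMI in either goat, which allows up to 9.47 CPM in Du'an 2 and 6.89 CPM in Nubian 2. The granulosa-like levels of these goats, 4.76 and 3.28 CPM, lay below those limits, though the granulosa-like mean over all goats lay above that of Nubian 2.

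Along the order of AMHR2, granulosa-like exceeded cumulus-like nuclei by 1.82 ± 1.21 CPM and did so in 4 of 4 goats, on the small counts just given. That was the 1 pair of neighbours, of 14, that differed beyond its spread within goats. In the fit across genes, which shares its spread over all classes, granulosa-like over cumulus-like nuclei gave a log2 fold change of 0.22 ± 0.40 for AMHR2 (adjusted p = 0.984, edgeR), and 2.67% of genes were called between them.

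**Figure D4:**
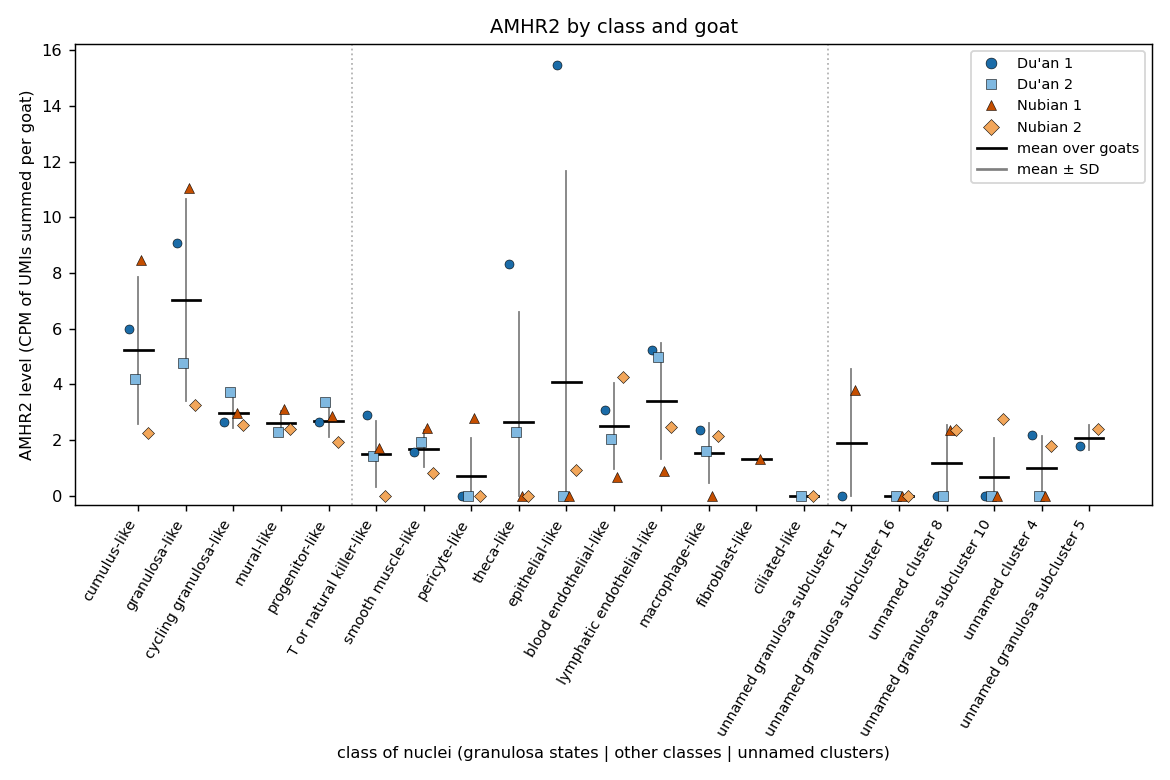
AMHR2 level in CPM (vertical axis, linear) by class, drawn as for AMH with 1 point per goat, black bars for means and grey lines for mean ± SD, drawn no lower than 0. Granulosa-like and cumulus-like means of 7.04 and 5.22 CPM are the 2 highest, while the high single points of theca-like and epithelial-like nuclei in Du'an 1 rest on 1 UMI each.

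Against the other named classes AMHR2 was higher in the granulosa states, with a log2 fold change of 1.75 ± 0.34 (adjusted p = 2.64e-05, edgeR) in the contrast that called 48.4% of genes. Since the ciliated-like sums are at 0, this size depends on the prior count of the fit. Without that class the value was 1.33 ± 0.26 (adjusted p = 2.05e-05). Granulosa-like nuclei exceeded 5 of the 9 other classes that had an AMHR2 UMI. The fit also called them over ciliated-like nuclei (edgeR adjusted p = 0.0409). That call is not counted, since the granulosa-like levels of the goats concerned lay below the limits of the ciliated-like sums. The share of all genes called was 40.7% against blood endothelial-like, 30.5% against ciliated-like, 29.6% against epithelial-like, 52.4% against macrophage-like, 32.0% against smooth muscle-like and 50.4% against T or natural killer-like nuclei, and 38.2% against lymphatic endothelial-like nuclei, which were not among the 5. The 5 included smooth muscle-like nuclei at a log2 fold change of 1.88 ± 0.48 (adjusted p = 0.00186) and T or natural killer-like nuclei at 2.09 ± 0.56 (adjusted p = 0.00160). Cumulus-like nuclei exceeded 4 of the 9, blood endothelial-like, macrophage-like, smooth muscle-like and T or natural killer-like. These pairs called 36.5%, 50.4%, 29.2% and 49.5% of all genes in that order. The other 3 states exceeded 0 of the 9 at this threshold, in pairs that called between 13.3% and 53.4% of genes.

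Among granulosa states, 1 of the 10 pairs differed in AMHR2, granulosa-like over progenitor-like nuclei (log2 fold change 1.16 ± 0.41, adjusted p = 0.0379, edgeR), a pair in which 20.7% of genes were called. Granulosa-like against cycling granulosa-like nuclei, where 5.23% of genes were called, gave 0.98 ± 0.44 (adjusted p = 0.252). Cumulus-like against mural-like gave a log2 fold change of 0.78 ± 0.42 (adjusted p = 0.257, edgeR). Progenitor-like against the mean of both gave -0.56 ± 0.38 (adjusted p = 0.341), and cycling granulosa-like against the same mean gave -0.38 ± 0.39 (adjusted p = 0.654). In simulated data of the cumulus-like against mural-like comparison 17% of genes changed 2-fold were called, so that differences of this size could mostly not be detected. The changed genes were drawn from those above a mean count that AMHR2 does not reach, so its own rate is not known.

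Thinned to 1000 UMIs, the share of nuclei with an AMHR2 UMI was 0.652 ± 0.716% in granulosa-like, 0.434 ± 0.359% in cumulus-like and 0.359 ± 0.127% in progenitor-like nuclei. Mural-like and cycling granulosa-like nuclei had 0.167 ± 0.184% and 0.117 ± 0.163%, and smooth muscle-like nuclei 0.0841 ± 0.102%. Spreads this wide give no order among the states. Without thinning the granulosa-like share was 3.13% and the smooth muscle-like share 0.359%.

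Ligand and receptor were seldom seen in the same nucleus. Of 19697 nuclei of the granulosa states, 2712 had an AMH UMI, 381 an AMHR2 UMI and 86 both. AMHR2 was found in 3.17% of the nuclei with AMH and in 1.74% of those without, but the former were also deeper, with a median of 6005 against 4313 UMIs. Thinned to 2000 UMIs, 15 nuclei had both, which is 1.40% of the nuclei with AMH (95% exact interval 0.787 to 2.30%) against 0.643% of those without (0.519 to 0.787%). These shares pool states of unlike AMH level, and the part of that mix was not tested. Within each state the intervals overlapped. The shares were 1.46% against 0.982% in cumulus-like, 2.04% against 1.21% in granulosa-like and 1.12% against 0.373% in cycling granulosa-like nuclei. They were 1.47% against 0.296% in progenitor-like and 0% against 0.538% in mural-like nuclei. Nuclei of a goat are not independent replicates, so these values carry no test.

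Between the breeds, AMH over all granulosa nuclei was 29.7 CPM in Du'an 1, 72.1 CPM in Du'an 2, 21.2 CPM in Nubian 1 and 19.7 CPM in Nubian 2. Both Nubian goats lay below both Du'an goats, and Du'an 2 stood far above the other 3. The log2 fold change of Nubian over Du'an was -1.32 ± 0.46, which did not pass adjustment over 15117 genes (adjusted p = 1.00, edgeR quasi-likelihood test). No gene was called in this comparison (0% of genes), where 400 genes had an unadjusted p under 0.05 and DESeq2 called 25 genes. Without Du'an 2 the AMH value was -0.55.

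Within each state the direction was the same and the size smaller or similar. The AMH value was -0.68 ± 0.23 in granulosa-like, -0.77 ± 0.27 in cumulus-like, -1.38 ± 0.58 in cycling granulosa-like and -0.56 ± 0.51 in progenitor-like nuclei, and -1.36 ± 0.44 in mural-like nuclei of 1 Du'an and 2 Nubian goats. None passed the adjusted threshold in edgeR (adjusted p of at least 0.999), in comparisons that called 0% of genes. In cumulus-like and granulosa-like nuclei the Nubian levels in CPM were below the Du'an levels in every pair of goats. The share of cumulus-like nuclei with an AMH UMI, thinned to 1000 UMIs, did not follow this order, since Nubian 2 was the highest goat at 11.6%. The cycling value was past the threshold without Nubian 2, at -2.46 (adjusted p = 0.0118), where Nubian 1 with its aromatase-high subcluster was the 1 Nubian goat left.

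The make-up of the granulosa set differed between goats and did not separate the breeds. Cumulus-like nuclei made up 8.96% of the granulosa set in Du'an 1, 43.1% in Du'an 2, 23.6% in Nubian 1 and 3.79% in Nubian 2, and the part of this make-up in the result over all granulosa nuclei was not tested. Mural-like nuclei made up 28.5% in Du'an 2, 48.4% in Nubian 1 and 7.88% in Nubian 2, and progenitor-like nuclei 26.4%, 3.86%, 7.00% and 46.0% in Du'an 1, Du'an 2, Nubian 1 and Nubian 2. In Du'an 1 a further 39.3% lay in an unnamed subcluster with 11.9 CPM of AMH. AMH in the other named classes, pooled, was 20.7, 27.4, 20.02 and 9.12 CPM, so that Du'an 2 was highest and Nubian 2 lowest there too, and the part of this in the breed values was not tested.

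AMHR2 over all granulosa nuclei was 3.66, 3.55, 4.34 and 2.35 CPM in Du'an 1, Du'an 2, Nubian 1 and Nubian 2. The Nubian goats were the highest and the lowest, and the log2 fold change was -0.10 ± 0.42 (edgeR adjusted p = 1.00). Its sign turned without Nubian 2, to 0.28. A difference between breeds in the contrast of 2 states was tested for cumulus-like, granulosa-like, cycling granulosa-like and progenitor-like nuclei, and for neither member did an interaction term pass the threshold (edgeR adjusted p = 1 in all 6 tests). Each of these contrasts called 0 of 12563 genes, so the lack of a call is not particular to the members.

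The 29 other genes of the AMH pathway were described by role, 28 of which passed the filter on low counts, SOX8 with 4 UMIs being the exception. In the granulosa states 14 of the 28 were higher and 5 lower than in the other classes, which is 50% and 17.9% against 27.3% and 21.1% of all genes, with a median log2 fold change of 0.40 against -0.01. With RLE factors and with DESeq2, SMAD5, ID2 and PCSK6 were no longer called. PCSK6 was also lost without Du'an 2 and without Nubian 2, ID2 without Nubian 2 and BAMBI without Nubian 1. Calls were gained for ACVR2A without Du'an 1, SMAD9 without Du'an 1 and without Du'an 2, and ID4 with DESeq2. Between cumulus-like and mural-like nuclei 5 were higher and 5 lower, 17.9% each against 8.27% and 6.53% of all genes, with a median of -0.07 against 0.01.

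Among the type I receptors that carry the AMH signal, BMPR1A and BMPR1B had levels of 530 and 1380 CPM in cumulus-like nuclei. CPM is not corrected for gene length, so levels of different genes are not compared. ACVR1, BMPR1A and BMPR1B had log2 fold changes of 0.00, -0.31 and -0.40 between cumulus-like and mural-like nuclei (adjusted p = 1.00, 0.405 and 0.469, edgeR). Against the other classes BMPR1A and BMPR1B were higher in granulosa states, by 1.14 and 1.10, and ACVR1 was lower, at -0.58. Among other type II receptors BMPR2 was lower in cumulus-like than mural-like nuclei (-1.06 ± 0.25, edgeR adjusted p = 0.00148).

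Of the SMADs that carry the signal, SMAD1, SMAD5, SMAD9 and SMAD4, none was called between cumulus-like and mural-like nuclei. SMAD9 had -1.18 (edgeR adjusted p = 0.0810) and was called as lower without Nubian 1 (-1.70, adjusted p = 0.0173). Of the 3 inhibitors 2 differed, and SMAD7 had 0.71 (adjusted p = 0.434, edgeR). SMAD6, which blocks the BMP-type SMADs, had a mean of 35.9 CPM in cumulus-like and 7.06 CPM in mural-like nuclei (log2 fold change 2.13 ± 0.45, edgeR adjusted p = 0.000394). BAMBI, a decoy receptor, had 2.78 and 0.431 CPM (2.93 ± 0.71, adjusted p = 0.00243). In progenitor-like nuclei SMAD7 stood at a mean of 110 CPM, against 5.48 CPM in cumulus-like and 3.77 CPM in mural-like nuclei (4.51 ± 0.36 over their mean, adjusted p = 7.62e-14).

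Target genes of BMP-type signals went different ways between cumulus-like and mural-like nuclei. ID1 was higher in the cumulus-like state (1.56 ± 0.45, edgeR adjusted p = 0.0112) and ID4 lower (-2.40 ± 0.65, adjusted p = 0.00721), while ID2 and ID3 had -0.996 and 0.61 (adjusted p = 0.0747 and 0.397). Of the proteases known to cut AMH, PCSK6 was higher in the cumulus-like state (14.1 against 1.82 CPM, 2.57 ± 0.41, adjusted p = 6.71e-06), and FURIN and PCSK5 had values of 0.30 and -0.04 (adjusted p = 0.684 and 0.981). KITLG, the granulosa ligand of the oocyte receptor KIT, was lower there (243 against 672 CPM, -1.63 ± 0.38, adjusted p = 0.00140).

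Of 7 tested factors known to act on the AMH promoter, 3 were called. WT1 was higher in cumulus-like than mural-like nuclei (67.7 against 10.6 CPM, log2 fold change 2.40 ± 0.45, edgeR adjusted p = 8.70e-05). GATA6 and NR5A1 were lower (-2.13 ± 0.34 and -1.21 ± 0.28, adjusted p = 5.25e-06 and 0.00110), and GATA4 and FOXL2 had -0.67 and -0.87 (adjusted p = 0.171 and 0.331). SOX9 and NR0B1, with means under 1 CPM in both states, had 1.502 and 0.92 (adjusted p = 0.503 and 0.584). Of the 10 pathway genes called here, SMAD6, PCSK6, WT1, GATA6 and NR5A1 stayed called under both other scalings and without each goat in turn. BMPR2, BAMBI, ID1 and ID4 were lost without Du'an 2 (edgeR adjusted p from 0.0729 to 0.230). ID1 was also lost without Nubian 1 and with DESeq2, and KITLG without Nubian 2 (edgeR adjusted p = 0.105). SMAD9 and ID2 were gained without Nubian 1.

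**Figure D5:**
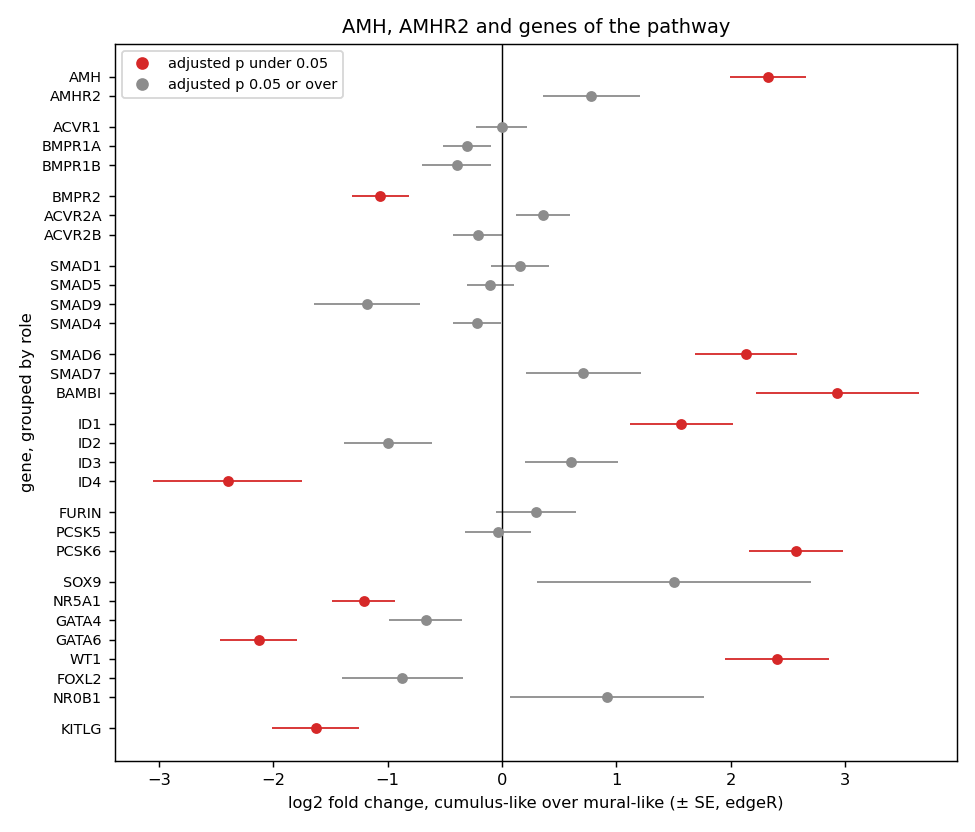
Log2 fold change of cumulus-like over mural-like nuclei (horizontal axis, bars ± SE from edgeR) for AMH, AMHR2 and the 28 tested genes of the pathway, grouped by role (vertical axis), with red points for adjusted p under 0.05. AMH at 2.32, SMAD6, BAMBI, ID1, PCSK6 and WT1 lie to the right and BMPR2, ID4, NR5A1, GATA6 and KITLG to the left, while AMHR2 at 0.78 is not called.

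In the remaining contrasts the list was called as follows. In progenitor-like nuclei 10 of 28 were higher and 2 lower than in the mean of cumulus-like and mural-like nuclei, 35.7% and 7.14% against 13.2% and 7.58% of all genes. The 10 were ACVR1, BMPR1B, SMAD9, SMAD6, SMAD7, BAMBI, ID1, PCSK5, PCSK6 and SOX9, and the 2 were NR5A1 and FOXL2. Of these, BMPR1B, BAMBI and SOX9 were lost without Du'an 2. Calls were gained for ID2, ID3 and KITLG without Nubian 2 and for SMAD5 with DESeq2. In cycling granulosa-like nuclei WT1 and PCSK6 were higher, 7.14% against 6.73% of all genes, PCSK6 not being called without any 1 of Du'an 1, Du'an 2 and Nubian 2. BMPR2 and ID2 were called as lower in cycling granulosa-like nuclei without Nubian 1. Between breeds 0 of 27 were called.

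The genes most alike to AMH over the 54 sums, by Pearson's r of log2(CPM + 1) among 15891 genes, were NXPE3 (0.82), COL4A3 (0.80), PAK1 (0.74), USP37 (0.74) and EIF2AK4 (0.73). FSHR came at place 25 (0.68), AMHR2 had 0.34 and CYP19A1 0.12. Within the 19 granulosa sums FSHR had 0.81 and CYP19A1 -0.27 with AMH. PAK1, a kinase, had means of 405 CPM in cumulus-like, 308 CPM in granulosa-like and 271 CPM in cycling granulosa-like nuclei, and 85.5 and 70.3 CPM in mural-like and progenitor-like nuclei. Among the genes most alike to AMHR2 were SETD9 (0.66), CA14 (0.64), RASL11B (0.63) and TMEM8C (0.62). Over the 19 granulosa sums alone their r was 0.40, 0.62, 0.31 and 0.66. SETD9 had as few UMIs as AMHR2 in epithelial-like (3) and theca-like (2) nuclei, with the same means of 4.09 and 2.66 CPM. CA14, a carbonic anhydrase, had 18.4 CPM in granulosa-like and 11.2 CPM in cumulus-like nuclei, and 0.736 CPM in mural-like nuclei. The sums share libraries and classes, and the largest values are descriptions of this table.

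AMH lies between JSRP1 and SF3A2 in the RefSeq annotation. JSRP1 had 23 UMIs in the kept nuclei. SF3A2, a splicing factor, had 1724 UMIs and class means of 6.11 to 13.2 CPM, with 12.8 CPM in cumulus-like, 9.37 CPM in mural-like and 9.96 CPM in progenitor-like nuclei. Its r with AMH was 0.11 over the 54 sums and 0.56 over the 19 granulosa sums, where AMHR2 had 0.55 with AMH. AMHR2 lies between LOC102179354 (7 UMIs) and SP1 (10323 UMIs), and no annotated gene overlapped either member.

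In the deposited table of markers of 4 follicle stages, AMH was listed under the primary stage alone, where the authors' value is 28.8% of nuclei with a UMI, pooled over goats. AMHR2 was listed under 0 of the 4 stages. Genes below the limits of that table are not listed, so an absent gene is not shown to be lacking.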

How the data were processed

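Nuclei from the ovaries of 4 goats (2 Du'an, 2 Nubian) were captured in droplets and sequenced, a library for each animal. The matrices deposited by the authors hold raw UMI counts, unnormalized, by gene and barcode, from Cell Ranger (5.0.0 per the submitters' processing notes). Whether intronic reads were counted is not given in the sources used here. The authors also deposited marker tables of granulosa subtypes and stages, made over pooled nuclei. Their fold changes and p-values hold the authors' own comparisons and were not used. From the stage table only the fraction of nuclei with a UMI was read, which the authors gave per stage and which is printed as percent.

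AMH and AMHR2 and the gene lists were chosen with earlier results of these data known. Nuclei were kept within 2 SD of their library's mean UMI and gene counts, with at most 20% mitochondrial UMIs and without nuclei called by Scrublet. Scrublet called 151 nuclei in Du'an 2 and 0 in the other libraries, so doublets were hardly removed. Nuclei were clustered (scanpy 1.11.5, Leiden, resolution 0.8, then 1.0 within the granulosa set) without AMH, AMHR2, SF3A2, the marker genes or the pathway list. A cluster was named "X-like" when at least 3 markers of a list exceeded 10 CPM and a log2 fold of 1 over the median cluster. Clusters with over 2% ribosomal protein UMIs or a median depth under 0.6 of their library's stayed unnamed unless a marker was among their 10 leading genes, a limit set after the data were seen.

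UMI counts were summed per goat and class (at least 20 nuclei) and tested with edgeR 4.0.16 (TMM, quasi-likelihood, goat as a block), with Benjamini-Hochberg adjustment over all genes tested. Breeds were compared 2 against 2 without a block. Levels are shares of the summed UMIs in CPM and changes are log2 fold changes ± SE. Intervals are exact 95% binomial or Poisson intervals and cover counting error only, like the limit of 3 counts set for a count of 0. In simulated data of the cumulus-like against mural-like comparison with 15892 genes, 17% of genes changed 2-fold and 93% of genes changed 4-fold were called. For the breeds (15117 genes) these shares were 2% and 46%. Alternatives were RLE factors, DESeq2 1.42.0, other filters and resolutions, left-out goats and a replicate block. Chosen after seeing the data were left-out subclusters and shallow subclusters named by their best marker list. Named genes were the members, the pathway list, the 5 genes most alike to each member and the nearest annotated neighbours. One gene that this rule names is not reported here. Gene names and neighbours came from RefSeq (assembly ARS1.2). Coordinates of that annotation served only to find neighbouring and overlapping genes, and no coordinate or sequence is printed.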

Additional observations from a re-analysis of the deposited data

How the results depend on the processing

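Of 382 values under alternatives to 64 results, 348 kept their direction and side of the threshold, moved by less than the spread or, for counts of called genes, stayed near the main count. In tests of AMH and AMHR2, 0 lost a call, 5 gained one and 4 changed sign. The other 25 values moved. Pathway genes entered as counts of calls alone, so the calls that single pathway genes lost, given above, are not among these. Leaving out each goat in turn, AMH ranged from 0.96 to 1.69 for granulosa states against other classes, from 2.08 to 2.43 for cumulus-like against mural-like and from -1.67 to -1.36 for progenitor-like nuclei, all called by edgeR, and AMHR2 from 1.78 to 2.01 for granulosa states. The AMH value of cycling granulosa-like nuclei ranged from 0.35 to 0.84 and was called without Nubian 1 (0.84), with all nuclei of at least 200 genes (0.95, edgeR adjusted p = 0.0314), without the aromatase-high subcluster (0.90) and, with its sign turned, without the aromatase-low one (-1.52). The 2 left-out subclusters were chosen after seeing the data. The cumulus-like against mural-like value of AMH ranged from 1.43 to 2.43 and kept its call in all 14 alternatives. Among these, also chosen after seeing the data, was the naming of shallow subclusters by their best marker list. Between breeds in cycling granulosa-like nuclei, AMH was called with no filter on low counts (-1.37, edgeR adjusted p = 0.0446) and without Nubian 2, with a range of -2.46 to -0.73 over left-out goats. AMHR2 between breeds changed sign with the goat left out, from -0.66 to 0.28 over all granulosa nuclei, from -1.08 to 0.58 in granulosa-like and from -1.11 to 0.75 in cumulus-like nuclei. The cause was not tested. DESeq2 called 25 genes between breeds. The mural-like breed comparison could not be fitted without Du'an 2, its 1 Du'an goat.

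Thinned to 2000 UMIs, the AMH share was 13.04% in granulosa-like, 12.7% in cumulus-like, 2.36% in mural-like and 2.31% in progenitor-like nuclei. Not thinned, it was 24.8%, 22.6%, 6.91% and 6.19%, and 22.3% in cycling granulosa-like nuclei. The AMHR2 share at 2000 UMIs was 1.13% in cumulus-like, 0.328% in cycling granulosa-like and 0.454% in mural-like nuclei. Not thinned, it was 3.13% in granulosa-like, 2.10% in cumulus-like, 1.87% in cycling granulosa-like, 1.39% in mural-like and 1.52% in progenitor-like nuclei. At clustering resolution 1.2 AMH was 27.2 CPM in lymphatic endothelial-like and AMHR2 2.39 CPM in cycling granulosa-like nuclei. Over left-out goats, 17 to 20 of the 29 listed pathway genes were called for granulosa states and 6 to 11 between cumulus-like and mural-like nuclei. For progenitor-like nuclei the range was 8 to 15, and for cycling granulosa-like nuclei 1 to 4. The main fits called 48.4%, 14.8%, 20.8% and 9.31% of all genes in that order. No result about the pathway is read from these ranges.

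Goats of both breeds share replicate numbers. The deviations of goats with the same number from their breed means had r = -0.41 across 15065 genes. With 2 goats per breed these deviations mirror each other, so the crossed pairing had r = 0.41 by construction. Whether the numbers pair goats cannot be decided from this value. With the replicate block the breed value was -1.19 for AMH (edgeR adjusted p = 1.00) and -0.18 for AMHR2, and 0 genes were called. With the crossed pairing, chosen after seeing the data, 0 genes were called.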

Other observations

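Nuclei in clusters left unnamed carried AMH too. A cluster of 2411 nuclei, with 3.00 to 6.19% ribosomal protein UMIs and a median of 711 to 862.5 UMIs per nucleus in a goat, had 65.7 CPM in Du'an 1, 238 CPM in Du'an 2, 61.0 CPM in Nubian 1 and 76.3 CPM in Nubian 2, and 6 AMHR2 UMIs in all. It held 10 of the 95 nuclei with at least 5 AMH UMIs. Another cluster of 4055 nuclei, with a median of 772.5 to 920.5 UMIs in a goat, had a mean of 48.4 ± 22.9 CPM (n = 4). It had 8 of 8 smooth muscle markers raised, and the cluster of 2411 nuclei had 6 of 7 fibroblast markers raised. Unnamed clusters outside the granulosa set gave 8.59% of the AMH UMIs and 4.45% of all UMIs. Within the granulosa set, unnamed subcluster 16 had 113 ± 49.8 CPM in 3 goats, from 141 nuclei and 31 AMH UMIs, and no AMHR2 UMI. Its nuclei had a mean of 15.8% mitochondrial UMIs and mitochondrial genes among the leading genes, and the part of this in the AMH level was not tested.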
